A study of Homo sapiens with 12 samples.

Results

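The genes described here are 50 genes of the lysosome, the acidic organelle in which cells break down proteins, sugar chains, lipids and engulfed material. They comprise 11 cathepsins, 15 subunits and accessory proteins of the proton pump, 7 glycosidases, 5 proteins of lipid handling and sphingolipid activation, 5 lysosomal membrane proteins, a channel with 2 transcription factors, and 4 genes of neuronal ceroid lipofuscinosis. The members were chosen by gene symbol and matched to 50 of the 57992 gene identifiers of the count table. In 12 RNA-seq libraries of induced microglia-like cells (iMGLs), they were examined across the loss of MEF2C, a stimulus and a kinase inhibitor.

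Lysosomal hydrolases are made as inactive precursors, sorted to the lysosome and activated at low pH. The vacuolar ATPase pumps protons into the lumen. Its V1 sector, on the cytosolic side, hydrolyses ATP, and its V0 sector forms the path through the membrane. TFEB and TFE3 are transcription factors of the MiT family that activate many lysosomal genes through a short DNA element, and their activity is set largely by where in the cell they are held. Microglia depend on this machinery to digest debris, and inherited loss of GRN, NPC1, CTSD or the CLN genes causes neurodegeneration.

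The starting cells were H1, a human pluripotent stem cell line. Wild-type cells (WT) and cells with a MEF2C knockout (KO) were each sequenced without treatment (3 libraries per genotype) and after lipopolysaccharide, or LPS, a bacterial product sensed through TLR4 (2 libraries per genotype). A further group of 2 libraries came from KO cells given LPS together with BMS265246, called BMS in the labels, an inhibitor of cyclin-dependent kinases. No group held WT cells with the inhibitor or cells with the inhibitor alone, so its effect could be compared only in KO cells with LPS, and a comparison with untreated KO cells joins LPS and the inhibitor. The kind of edit, the number of clones, the doses and the times were not found among the labels.

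The libraries held 13888283 to 17639136 counts. Levels are in CPM, counts brought to a common library size, with the library sizes scaled by TMM, and a count of 0 in 1 library allowed up to 0.154 to 0.236 CPM, a bound on counting error only. Changes are log2 fold changes ± SE, with p-values from edgeR's quasi-likelihood test adjusted over 16022 genes, and a gene was called at an adjusted p under 0.05. The titles call the libraries biological replicates of 1 cell line, so that the p-values measure the spread between these cultures. MEF2C was still transcribed in KO cells, at a mean of 133 CPM against 184 CPM in WT, and with LPS at 46.4 CPM in KO, 50.6 CPM in WT and 43.9 CPM with BMS. Markers of microglia and macrophages were expressed, with a summed level of 13 genes of 6384 to 7289 CPM in every library. The list joins both cell types, so this sum does not tell microglia from other macrophages. TMEM119 had group means of 27.4 to 42 CPM, while those of SALL1 were at most 0.111 CPM. Single genes moved within the sum of these 13 genes. With LPS 2 of the 12 tested were higher and 5 lower in WT (28.9% and 30.8% of all genes), and 3 and 4 in KO (24.5% and 20.3%). In KO against WT 2 were higher and 4 lower (10.2% and 11.4% of all genes). With BMS, relative to KO LPS, 7 were higher and 4 lower (22.3% and 25.5%). Mean P2RY12 went from 15.1 to 1.81 CPM in WT and from 11.7 to 1.86 CPM in KO. Mean PTPRC rose from 789 to 1750 CPM in WT and from 783 to 1382 CPM in KO. The summed level of 7 monocyte genes was 2293 to 2481 CPM in WT and 3181 to 3214 CPM in KO, and with LPS 3030 to 3153 CPM in WT, 3752 to 3947 CPM in KO and 3249 to 3507 CPM with BMS. That of 9 neutrophil and mast cell genes was 257 to 267 CPM in WT with or without LPS, 359.6 to 376 CPM in KO with or without it and 422 CPM with BMS. That of 7 osteoclast genes was 687 to 713 CPM in WT, 602 to 637 CPM in KO, 363 to 407 CPM in WT LPS, 468 to 529 CPM in KO LPS and 558 to 606 CPM with BMS. In KO against WT all 5 tested neutrophil and mast cell genes were higher (10.2% of all genes). Of 7 monocyte genes 5 were higher and 1 lower, and of 7 osteoclast genes 2 and 1 (11.4% of all genes lower). With BMS, relative to KO LPS, 2 monocyte genes were higher and 5 lower (22.3% and 25.5% of all genes). Of the 5 tested neutrophil and mast cell genes 2 were higher and 0 lower there. The summed level of 4 pluripotent cell genes was at most 0.618 CPM. That of 5 lymphocyte genes was 17.3 to 19.8 CPM in WT and 16.5 to 19.6 CPM in KO. With LPS it was 35.8 to 38.5 CPM in WT, 25.3 to 32.8 CPM in KO and 17.2 to 17.6 CPM with BMS. That of 5 neuronal genes was 1.3 to 2.26 CPM in WT with or without LPS and 3.99 to 5.55 CPM in the KO groups. That of 7 fibroblast and mesenchyme genes was 10.4 to 27.1 CPM in WT and 17 to 24.6 CPM with LPS. In KO it was at least 18.1 CPM, with a higher maximum than in WT. The B cell gene MS4A1 was at 0 in every library. In bulk RNA, fewer cells of a type and less RNA per cell cannot be told apart, and the part of these marker levels in the results below was not tested.

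Of the 50 genes, 49 passed the filter on low counts. PSAP, the precursor of the saposins that help enzymes reach sphingolipids, had the highest level per length of exon in WT, 2290 RPKM, the CPM divided by exon length in kilobases. It was followed by the carboxypeptidase CTSZ at 1051 RPKM, the cysteine protease CTSB at 477 RPKM, GRN, the progranulin precursor, at 475 RPKM, the cholesterol carrier NPC2 at 413 RPKM and the microglial protease CTSS at 292 RPKM. The aspartic protease CTSD had 178 RPKM and CTSL 167 RPKM, whereas CTSF and CTSK had 2.66 and 4.71 RPKM. Within the proton pump, ATP6V0E1 had 138 RPKM and ATP6V1F 108 RPKM, and ATP6V1D 12.2 RPKM, although its subunits are built into 1 complex. NPC1, the membrane partner of NPC2, had 14.8 RPKM and TFEB 9.64 RPKM against 33.1 RPKM for TFE3.

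The table gives almost no reads to 2 genes, which limits what can be said of them. CD68, a glycoprotein of macrophage lysosomes, had 0 to 4 counts per library and was not tested. In GENCODE release 29, 81.7% of its exonic bases are shared on the same strand, most with AC016876.2, which itself had 0 to 1 counts. ATP6V0C, the proteolipid subunit that lines the proton path, had 3 to 15 counts, and 72.1% of its exonic bases are shared in the same way. Its partners AC093525.2 and AC093525.1 had 0 counts in every library. CTSF, with no shared bases, had 23 to 154 counts. CLN3 had 37 to 207 counts with 25.2% of its exonic bases shared on the same strand. CTSD, a well-covered gene, shares 41.7% with AC068580.4 and MAN2B1 shares 21.2%. TPP1 shares 11.6% and CLN8 8.3% on the same strand. HEXA, with 168 to 411 counts, shares 16.3% on either strand and 4.9% on the same one. No source used here states how shared reads were counted. The levels of CD68, ATP6V0C, CLN3, CTSD, MAN2B1, TPP1, CLN8 and HEXA may thus not be those of their transcripts. CLN3 also overlaps APOBR on the opposite strand, as NPC1 does RMC1, PPT1 does CAP1 and ATP6V1D does EIF2S1 (988 to 2125 counts). CTSA overlaps NEURL2 (0 to 16 counts) and PLTP (3500 to 7307 counts) in this way. Without a stated strand setting the reads of such pairs cannot be told apart.

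The MiT factors bind the E-box CACGTG, in lysosomal genes often with a T before it, which gives TCACGTG. RefSeq promoters of 300 bases (GRCh38.p14, 250 bases before the annotated start and 50 after it) were found for 37 of the 50 genes. CTSB, CTSK, CTSO, CTSS, ATP6V0E1, ATP6V1A, ATP6V1B2, ATP6V1C1, ATP6V1H, HEXA, PSAP, LAMP2 and CLN8 had no entry. On either strand, CACGTG occurred in 12 of the 37 promoters (32.4%) and in 2030 of all 27305 promoters (7.43%). TCACGTG, which contains it, occurred in 11 of 37 (29.7%) and in 1043 of 27305 (3.82%). The 12 genes were ATP6V0B, ATP6V0D1, ATP6V1G1, CD63, CLN3, CTSA, CTSD, CTSF, GAA, LAMP1, MCOLN1 and NEU1, and CD63 held only the shorter form. LAMP1 held 6 E-boxes, and every other one of them 1 or 2. The stretches below are shown because they carry these E-boxes in genes whose values are described later, with each E-box in capitals, along with a T before it or an A after it (a T on the other strand).
LAMP1: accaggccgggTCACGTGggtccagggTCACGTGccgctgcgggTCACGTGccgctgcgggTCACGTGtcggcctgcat
MCOLN1: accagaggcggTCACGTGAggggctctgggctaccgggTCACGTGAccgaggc
GAA: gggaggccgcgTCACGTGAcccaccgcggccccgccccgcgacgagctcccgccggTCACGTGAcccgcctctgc
CTSD: ccggccgcgccCACGTGAccggtccgggt
ATP6V1G1: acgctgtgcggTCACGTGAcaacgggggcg
NEU1: atgctgcgtgaTCACGTGggaggagatga
They lie at chr13:113297035-113297113 for LAMP1, chr19:7522571-7522623 for MCOLN1, chr17:80101493-80101567 for GAA and chr9:114587699-114587728 for ATP6V1G1, all on the plus strand. Those of CTSD, chr11:1763957-1763985, and NEU1, chr6:31862931-31862959, are on the minus strand. Each is written 5′ to 3′ on the strand of its gene, upstream of the RefSeq start. By GENCODE, whose transcripts can start earlier, all 29 bases of the CTSD stretch and 12 bases of that of GAA are exonic, and the other stretches hold no exonic base. LAMP1 held 4 E-boxes within these 79 bases, a repeat of nearly the same unit. A match describes letters in this window and is not a measured binding site.

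**Figure D1:**
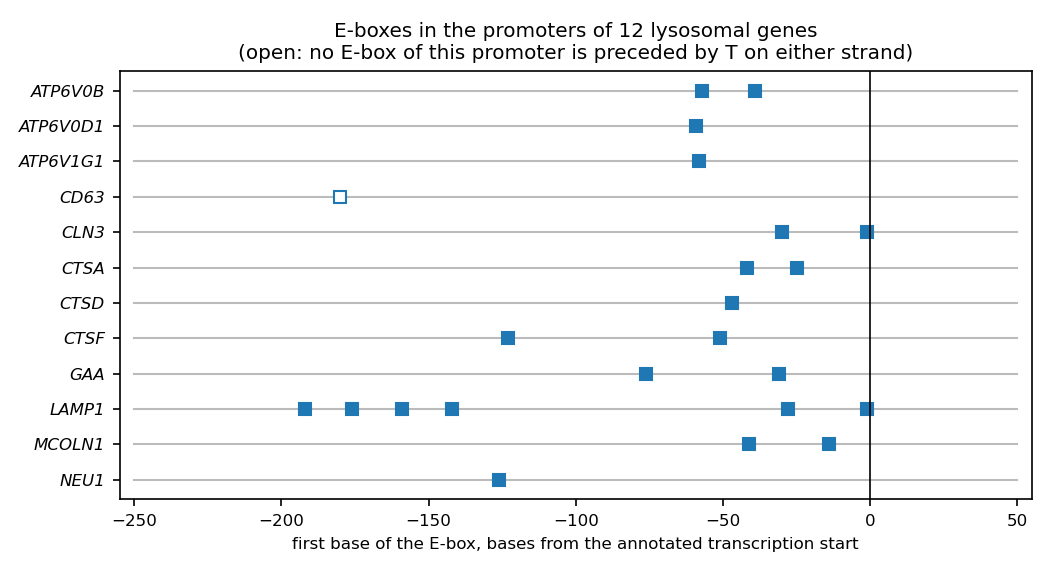
Position of each CACGTG in the promoters of the 12 lysosomal genes that hold one. The x axis is the distance in bases of its first base from the annotated start, from 250 before to 50 after. Squares are E-boxes, filled where the promoter also holds TCACGTG, as in 11 of the 12. LAMP1 has 6.

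The first comparison asked what the loss of MEF2C changed in resting cells. In KO against WT, 10 of the 49 lysosomal genes were higher, 4 were lower and 35 were not called (28.6% called, against 21.6% of all genes tested, 10.2% higher and 11.4% lower). Their median log2 fold change was 0.05, and that of all genes was -0.015. Cathepsins held 6 of the 14 calls. No subunit of the V0 sector and none of MCOLN1, TFEB and TFE3 was called. MCOLN1 (0.27 ± 0.09, adjusted p = 0.0549) was called in some other settings, among them DESeq2 (0.27) and unscaled library sizes (0.28), but not with a replicate block (0.27). Of the fits with a library left out, only that without KO replicate 1 called it (0.35), and the rest gave 0.19 to 0.31.

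CTSF, a papain-type cysteine protease, changed most (ENSG00000174080, chr11:66563463-66568841). It had 7.62, 7.57 and 7.93 CPM in the WT libraries and 1.94, 1.73 and 2.15 CPM in the KO libraries. All 3 KO libraries were thus near 2 CPM, far below every WT library, and the log2 fold change was -1.98 ± 0.17 (adjusted p = 6.27e-09). CLN8, a membrane protein that helps lysosomal enzymes leave the endoplasmic reticulum, fell from 43.4, 49.4 and 44.7 CPM to 29.4, 32.9 and 30.7 CPM (-0.56 ± 0.07, adjusted p = 1.08e-06). CTSO fell from 31.6, 30.1 and 31.4 CPM to 24.2, 23.5 and 22.4 CPM (-0.41 ± 0.07, adjusted p = 0.000266). In each of these 3 genes the genotypes did not overlap.

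CTSL, a cysteine protease with broad activity, led the rises. Its level was 414, 376 and 393 CPM in WT and 570.4, 555 and 554 CPM in KO, with no overlap (0.51 ± 0.05, adjusted p = 4.7e-08). CTSC, which activates serine proteases of immune granules, rose from 1738, 1633 and 1667 CPM to 2144, 2041 and 2090 CPM (0.32 ± 0.04, adjusted p = 4.18e-06). LIPA, the acid lipase for cholesteryl esters and triglycerides, rose from 888, 825 and 833 CPM to 1050, 1018 and 1055 CPM (0.29 ± 0.05, adjusted p = 8.68e-05). All of the KO libraries lay above all of the WT libraries in these genes. CTSB rose from 3518, 3526 and 3577 CPM to 4132, 4260 and 4180 CPM (0.24 ± 0.04, adjusted p = 4.85e-05). The tetraspanin CD63 rose from 479, 445 and 453 CPM to 560.1, 546 and 538 CPM (0.25 ± 0.04, adjusted p = 0.000182). The stalk subunit ATP6V1C1 rose from 101, 92.9 and 91.2 CPM to 113, 112 and 116 CPM (0.26 ± 0.06, adjusted p = 0.00173), the only one of these in the proton pump.

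CTSA, GLA, GUSB and ATP6V1E1 were also called higher, at 0.16 to 0.21, and NPC2 lower, at -0.15 ± 0.05. Each of these 5 calls was lost when 1 or another library was left out. CTSA lost its call without WT replicate 1, WT replicate 2 or KO replicate 2 (0.19 each), GUSB without KO replicate 2 (0.16), and GLA without 1 of WT replicates 2 and 3 and KO replicates 1 and 3 (0.14 to 0.16). ATP6V1E1 lost it without any of 5 libraries, WT replicates 2 and 3 and all of KO (0.14 to 0.17), and NPC2 without WT replicate 1 or any KO library (-0.16 to -0.10). Neither CTSD (0.15 ± 0.13), CTSS (-0.05 ± 0.05), GRN (0.10 ± 0.10), LAMP1 (-0.09 ± 0.05) nor TFEB (0.00 ± 0.09) was called. TFEB had 50.4, 51.5 and 61.5 CPM in WT and 52, 57.4 and 54.4 CPM in KO, and its groups overlapped.

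**Figure D2:**
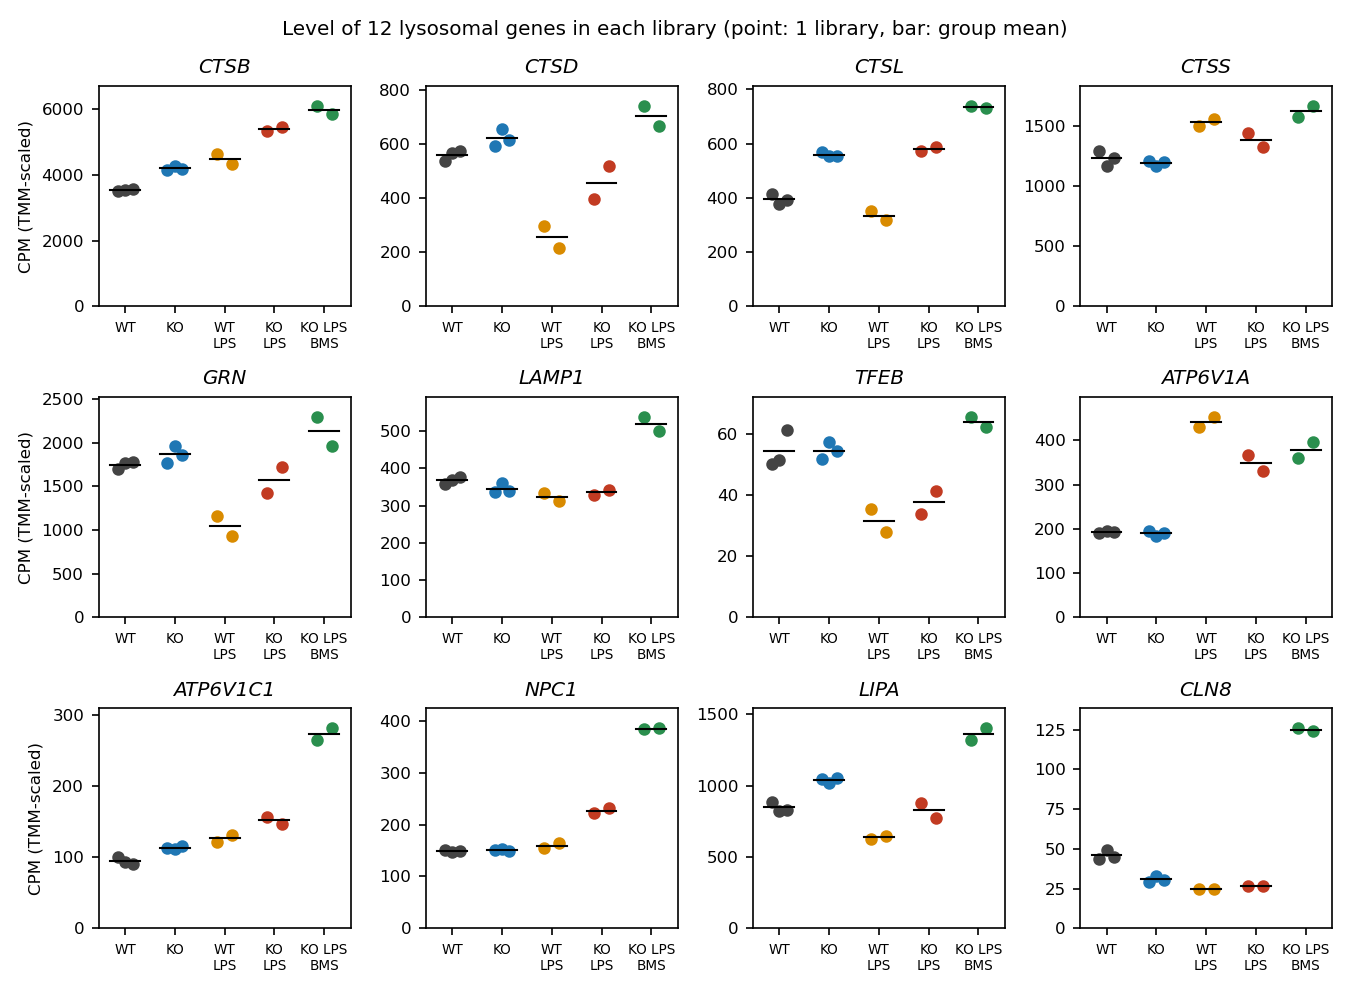
Level of 12 lysosomal genes in CPM on TMM-scaled library sizes, with 1 point per library and a bar at the group mean (WT and KO n = 3, other groups n = 2). Each y axis starts at 0. CLN8 is at 24.6 CPM in both WT LPS libraries, 26.7 and 26.5 CPM in KO LPS, and 126 and 124 CPM with BMS.

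The second comparison asked how the genes responded to LPS in WT cells. Of the 49, 15 were higher, 24 were lower and 10 were not called (79.6% called, against 59.7% of all genes, 28.9% higher and 30.8% lower), with a median of -0.15 beside -0.072 for all genes. On library sizes without TMM factors 10 were higher and 33 lower. In the V1 sector of the proton pump 7 of 8 subunits rose and none fell (median 0.60), with 6 and 1 on unscaled library sizes. In the V0 sector 1 of 5 rose and 2 fell, with 0 and 3 on unscaled library sizes and 0 and 1 with a GC term, described below. Of the glycosidases 6 of 7 fell, and all 4 ceroid lipofuscinosis genes fell. Unscaled library sizes moved the median of all genes by -0.29 in this comparison, by -0.25 in KO with LPS and by -0.34 for BMS against untreated KO, and changes are given relative to the TMM scale.

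ATP6V1A, the catalytic subunit that binds ATP, rose most (ENSG00000114573, chr3:113747019-113812056). It had 189.6, 195 and 193 CPM in WT and 431 and 453 CPM with LPS, more than a doubling in both LPS libraries (1.20 ± 0.06, adjusted p = 3.2e-14). ATP6V1B2, its partner in the catalytic head, went from 655, 644 and 664 CPM to 1053 and 1095 CPM (0.71 ± 0.04, adjusted p = 4.18e-12). ATP6V1G1, a peripheral stalk subunit, went from 135, 121 and 124 CPM to 214 and 198 CPM (0.70 ± 0.06, adjusted p = 8.14e-10). In all of them the LPS libraries stood well clear of the untreated ones. ATP6V1E1, another stalk subunit, rose from 131, 119.6 and 119 CPM to 197 and 189 CPM (0.64 ± 0.06, adjusted p = 3.35e-09). ATP6V1D, of the central shaft, rose from 53.1, 50.6 and 51.5 CPM to 73.7 and 78 CPM (0.55 ± 0.07, adjusted p = 5.8e-07). ATP6V1C1 and ATP6V1H rose by 0.41 and 0.49, whereas ATP6V1F was not called (0.06 ± 0.08). In the membrane sector ATP6V0A1 fell by 0.32 and ATP6V0D1 by 0.23, and ATP6V0E1 rose by 0.24.

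CTSD and CTSF had the lowest changes, closer to each other than their SE. CTSD is an aspartic protease (ENSG00000117984, chr11:1752752-1764573), and its level was 535, 565 and 573 CPM in WT and 297 and 217 CPM with LPS (-1.12 ± 0.15, adjusted p = 0.00026). The LPS libraries were both below every untreated one, but they differed from each other by 0.45 on the log2 scale. GRN fell from 1694, 1770 and 1775 CPM to 1161 and 936 CPM (-0.74 ± 0.11, adjusted p = 0.000322). The glycogen-degrading GAA fell from 299, 322 and 341 CPM to 204 and 167 CPM (-0.79 ± 0.13, adjusted p = 0.000674). Each of these transcripts had over 60% G and C, and the second LPS library was the lower one in each. CTSF fell from its WT level to 3.99 and 3.25 CPM (-1.09 ± 0.18, adjusted p = 1.35e-05), and CLN8 to 24.6 CPM in both LPS libraries (-0.90 ± 0.08, adjusted p = 1.52e-09).

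The calcium channel MCOLN1 and TFEB fell together in WT. MCOLN1 went from 56.1, 67.1 and 66.5 CPM to 37 and 31.1 CPM (-0.89 ± 0.11, adjusted p = 7.06e-06). TFEB went from 50.4, 51.5 and 61.5 CPM to 35.4 and 28 CPM (-0.78 ± 0.11, adjusted p = 1.22e-05), without overlap. TFE3 moved the other way, from 139.5, 143 and 143 CPM to 201 and 188 CPM (0.46 ± 0.06, adjusted p = 3.28e-07). The cathepsins were divided as well: CTSB, at 4624 and 4319 CPM (0.34 ± 0.04, adjusted p = 4.73e-07), and CTSS, at 1507 and 1560 CPM (0.31 ± 0.05, adjusted p = 1.67e-05), rose. CTSL fell to 352 and 317 CPM (-0.24 ± 0.05, adjusted p = 0.000705), and CTSC (-0.35) and CTSZ (-0.22) fell too. On unscaled library sizes CTSB was 0.05 and CTSS 0.03, neither of them called.

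Among membrane proteins CD63 rose from 479, 445 and 453 CPM to 718 and 678 CPM (0.60 ± 0.05, adjusted p = 5.44e-10) and LAMP2 rose by 0.48. LAMP1, from 359, 368 and 376 CPM to 335 and 313 CPM, fell slightly (-0.18 ± 0.05, adjusted p = 0.00603), and SCARB2, the receptor that carries glucocerebrosidase, fell by 0.28. LIPA fell by 0.41, and NPC1, NPC2 and PSAP were not called. GLA, the alpha-galactosidase, was the only glycosidase to rise (0.42 ± 0.05, adjusted p = 4.67e-07). Without WT LPS replicate 2 the calls of LAMP1 (-0.13), CTSZ (-0.15), TPP1 (-0.11) and ATP6V0D1 (-0.11) were lost. That of CLN3 (-0.40) was lost without WT LPS replicate 1, and those of ATP6AP1 (0.21 and 0.11) and ATP6AP2 (-0.11 and -0.13) without WT replicate 1 or WT LPS replicate 1.

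The G and C content of the transcripts moved with these values. Across 48 genes (ATP6V0C left out for its counts), the log2 ratio of replicate 2 to replicate 1 correlated with GC content at r = -0.68 in WT LPS, 0.79 in KO LPS, -0.56 with BMS, 0.60 in WT and 0.62 in KO, over genes of the same libraries. The LPS response of WT correlated with it at r = -0.55 across the 49 genes and at -0.25 across all genes. V1 transcripts had 39.7 to 54.3% GC, and those of MCOLN1, TFEB and TFE3 57.7 to 62.0%. With a GC term per library, an alternative added after seeing the data, 15 genes were higher and 22 lower in WT with LPS. All 8 V1 subunits rose, with ATP6V1A at 0.94, ATP6V1B2 at 0.45 and ATP6V1C1 at 0.14. TFE3 was 0.78, LAMP2 0.18, SCARB2 -0.50, CTSC -0.64, ATP6AP1 0.36 and ATP6AP2 -0.36. CTSD was then -0.62, MCOLN1 -0.48, GRN -0.33 and GAA -0.28, all still called, while CTSS (0.04), MAN2B1 (-0.07), CTSZ (0.04), ATP6V0D1 (0.03), ATP6V0E1 (0.07) and CLN3 (-0.25) were not.

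**Figure D3:**
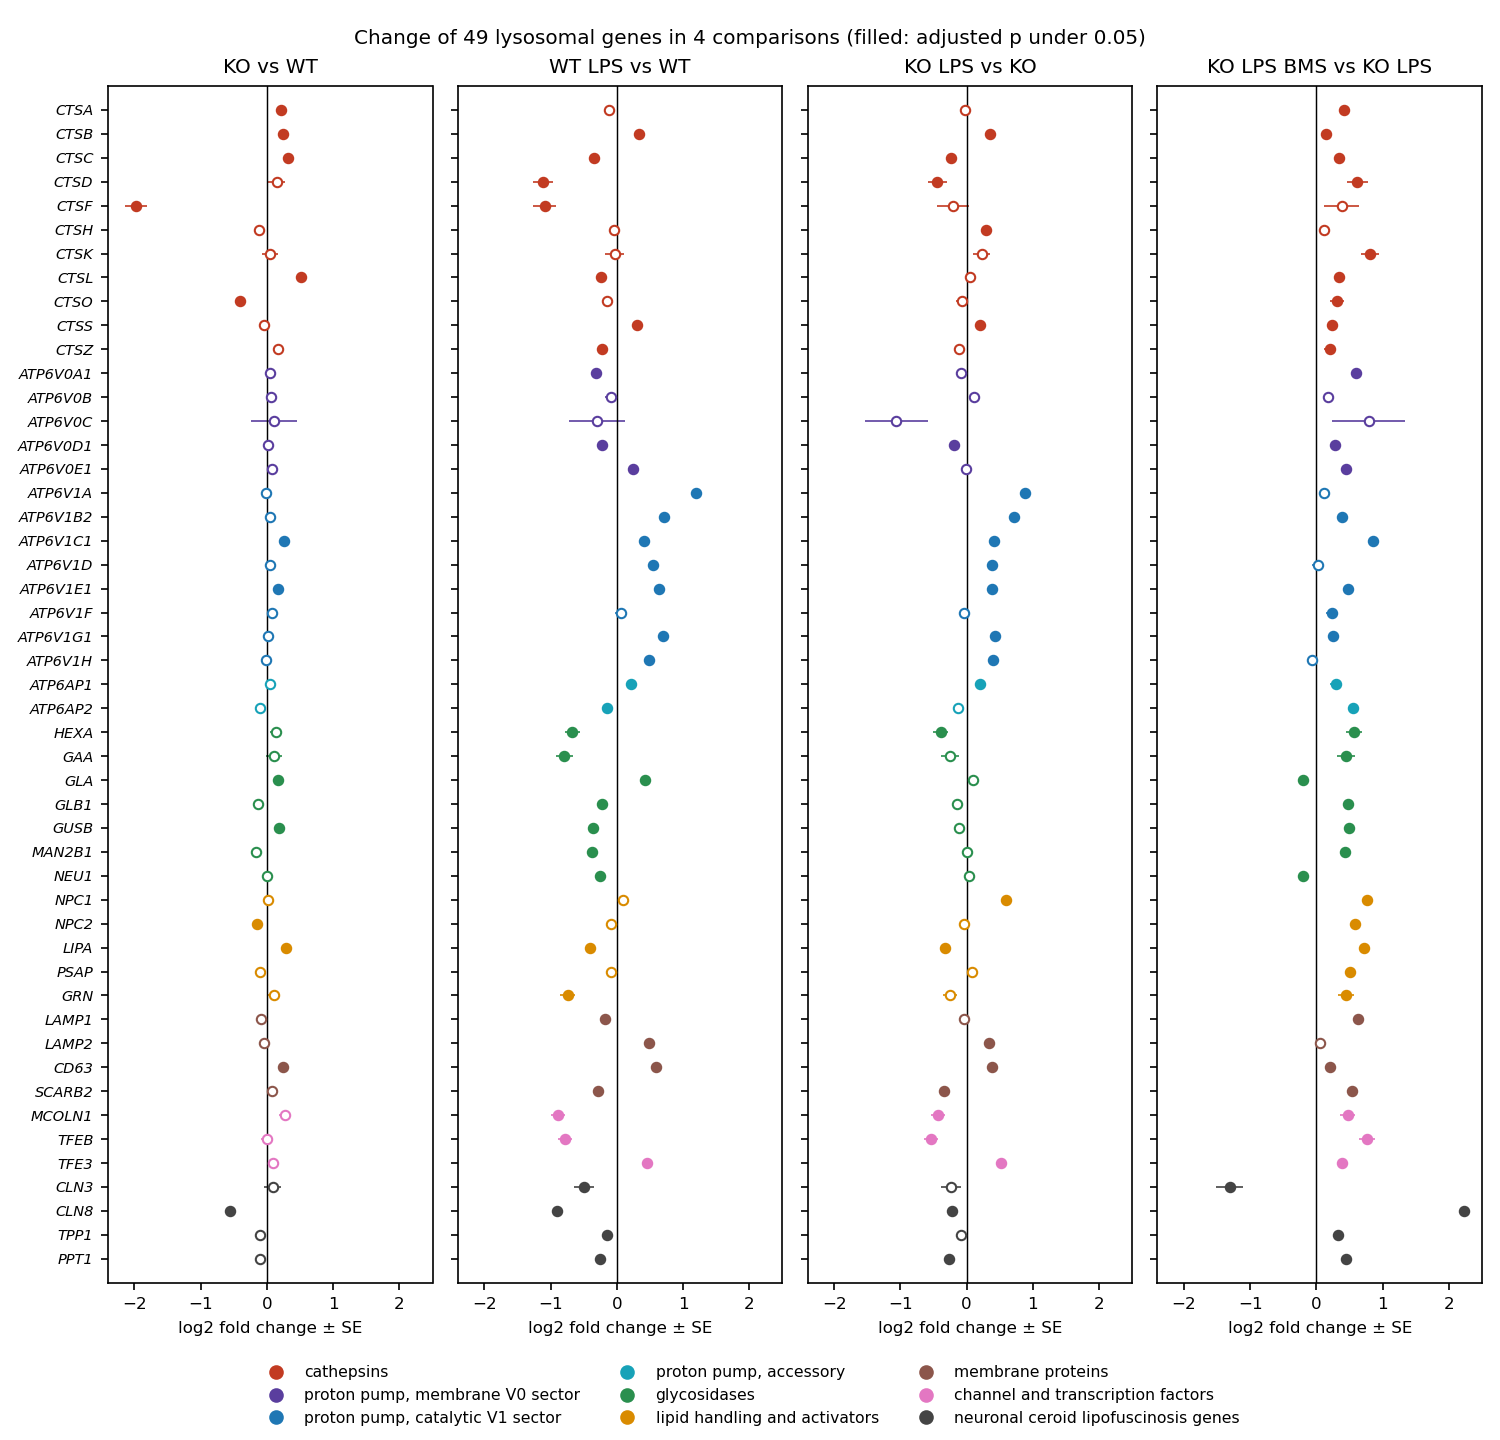
Log2 fold change ± SE of the 49 tested lysosomal genes in 4 comparisons (x axis), ordered and coloured by role. Filled points were called at an adjusted p under 0.05. Of the 8 V1 subunits, 7 are called higher with LPS in each genotype on the TMM scale (6 in WT and 4 in KO on unscaled library sizes), and 38 of 49 genes are called higher with BMS.

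The third comparison repeated LPS in KO cells, with no library in common with the one in WT. In KO, 15 genes were higher, 10 were lower and 24 were not called (51% called, against 44.8% of all genes, 24.5% higher and 20.3% lower), with a median of -0.04 beside -0.004. On unscaled library sizes 8 were higher and 31 lower. The V1 sector again had 7 of 8 subunits higher and none lower (median 0.41), with 4 higher and 1 lower on unscaled library sizes. Of 7 glycosidases 1 fell, as did 2 of 4 ceroid lipofuscinosis genes, but all of them did on unscaled library sizes. Between WT and KO, 13 genes rose in both, 10 fell in both and none was called in opposite directions. These are 26.5%, 20.4% and 0% of the members, against 21.6%, 17.7% and 0.231% of all genes tested. A further 16 were called in WT alone and 2 in KO alone, CTSH and NPC1. These are 32.7% and 4.08% of the members, against 20.2% and 5.32% of all genes. Across the 49 genes the responses of the genotypes correlated at r = 0.82, and across all genes at 0.84, a description over genes of 10 libraries.

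ATP6V1A rose from 195, 184 and 191 CPM to 366 and 331 CPM in KO (0.88 ± 0.06, adjusted p = 1.7e-11). ATP6V1B2 rose from 681, 670.1 and 676 CPM to 1124 and 1087 CPM (0.71 ± 0.04, adjusted p = 8.03e-12). Both LPS libraries were far above the untreated KO libraries in each. NPC1, which exports cholesterol from the lysosome, had 151, 152 and 149.8 CPM in KO and 223 and 231 CPM with LPS (0.59 ± 0.05, adjusted p = 2.79e-09). In WT its LPS libraries were at 154 and 164 CPM, close to the 148 to 151 CPM without LPS. TFE3 rose from 147, 155 and 150.2 CPM to 206 and 227 CPM (0.52 ± 0.06, adjusted p = 7.1e-08). ATP6V1G1 rose from 131, 130.2 and 123 CPM to 172 and 173 CPM (0.43 ± 0.06, adjusted p = 3.53e-06), and ATP6V1C1 from 113, 112 and 116 CPM to 157 and 147 CPM (0.42 ± 0.06, adjusted p = 7.22e-06). The groups were apart in all of these.

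TFEB fell in KO from 52, 57.4 and 54.4 CPM to 34 and 41.4 CPM (-0.54 ± 0.11, adjusted p = 0.000691). MCOLN1 fell from 67.8, 82.9 and 77.8 CPM to 52.6 and 60.5 CPM (-0.43 ± 0.11, adjusted p = 0.00436). HEXA, a subunit of beta-hexosaminidase, fell from 23.6, 21.6 and 21.8 CPM to 16.8 and 17.3 CPM (-0.39 ± 0.11, adjusted p = 0.0066). As in WT, these were lower in both LPS libraries. SCARB2 fell from 419.8, 411 and 439 CPM to 341 and 327 CPM (-0.34 ± 0.06, adjusted p = 2.67e-05), and LIPA from 1050, 1018 and 1055 CPM to 877 and 777 CPM (-0.33 ± 0.05, adjusted p = 3.01e-05). CTSD fell from 590.4, 656 and 616 CPM to 395 and 519 CPM (-0.44 ± 0.15, adjusted p = 0.0422), with LPS libraries far apart from each other. Its call was lost without any single KO library or KO LPS replicate 1 (-0.48 to -0.29).

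CTSB rose from 4132, 4260 and 4180 CPM to 5318 and 5443 CPM (0.36 ± 0.04, adjusted p = 2.94e-07). CTSS rose by 0.21 ± 0.05 (adjusted p = 0.00162), a call lost without KO LPS replicate 1 (0.12) and reversed to -0.04 on unscaled library sizes. CTSL (0.05 ± 0.05), LAMP1 (-0.04 ± 0.05) and GRN (-0.25 ± 0.11, adjusted p = 0.103) were not called, although GRN passed without KO LPS replicate 2 (-0.39). The calls of ATP6AP1 (0.21), ATP6V0D1 (-0.19) and CLN8 (-0.22) also rested on single libraries. ATP6AP1 lost it without KO replicate 1 or 3 or KO LPS replicate 2 (0.10 to 0.21), ATP6V0D1 without KO replicate 2 or 3 or either KO LPS library (-0.21 to -0.17), and CLN8 without KO replicate 2 (-0.18) or KO LPS replicate 2 (-0.21).

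**Figure D4:**
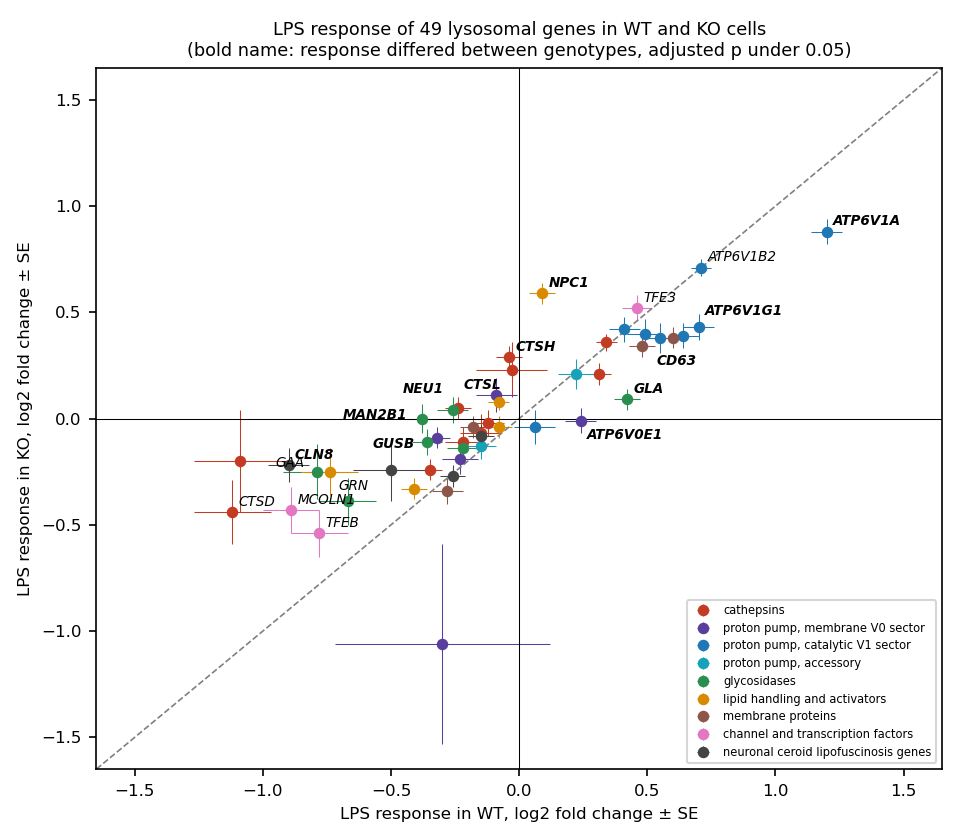
LPS response of 49 lysosomal genes in WT (x axis) against KO (y axis), log2 fold change ± SE, coloured by role. The dashed line marks equal responses. Bold names mark the 12 genes whose responses differed in the interaction test. NPC1 lies at 0.09 in WT and 0.59 in KO, and CLN8 at -0.90 and -0.22.

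Whether LPS acted differently in the 2 genotypes was tested as an interaction, the response of KO minus that of WT. It was called for 12 genes, 7 with a more positive response in KO and 5 with a more negative one (24.5%, against 12% of all genes, 6.42% and 5.57%). The median was 0.08, and that of all genes 0.051. Among called genes CLN8 had the largest positive difference (0.68 ± 0.11, adjusted p = 0.00032), followed by NPC1 (0.49 ± 0.07, adjusted p = 0.000108), the mannosidase MAN2B1 (0.37 ± 0.10, adjusted p = 0.0134), the aminopeptidase CTSH (0.32 ± 0.07, adjusted p = 0.00326), the sialidase NEU1 (0.30 ± 0.09, adjusted p = 0.0323) and CTSL (0.29 ± 0.08, adjusted p = 0.0152). The beta-glucuronidase GUSB was at the threshold (0.25 ± 0.08, adjusted p = 0.0495). The negative differences were those of GLA (-0.33 ± 0.08, adjusted p = 0.00542), ATP6V1A (-0.32 ± 0.08, adjusted p = 0.0102), ATP6V1G1 (-0.28 ± 0.08, adjusted p = 0.0365), ATP6V0E1 (-0.25 ± 0.08, adjusted p = 0.0383) and CD63 (-0.22 ± 0.07, adjusted p = 0.0415).

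In the library values, CTSH stayed at 778 and 728 CPM in WT with LPS (778, 762 and 780.2 CPM without) but rose in KO from 715, 714 and 708 CPM to 857 and 879 CPM. GLA went from 139, 136 and 139 CPM to 184 and 185 CPM in WT, and in KO from 153, 151 and 157 CPM to 167 and 159.8 CPM. CLN8, NPC1, CTSH and GLA kept their calls under every alternative tried, and the other 8 did not. The differences of CTSF (0.90 ± 0.31, adjusted p = 0.0612), CTSD (0.68 ± 0.21), GRN (0.49 ± 0.16), GAA (0.54 ± 0.19) and MCOLN1 (0.46 ± 0.16) were positive but missed the threshold. That of CTSF passed without WT LPS replicate 1 (1.05). That of GAA passed without KO LPS replicate 1 (0.71), with DESeq2 (0.49) and with a GC term (0.20). That of MCOLN1 passed without WT replicate 1, WT LPS replicate 1, KO replicate 2 or KO LPS replicate 1 (0.53 to 0.60). MCOLN1 also passed with DESeq2 (0.42), on unscaled library sizes (0.50) and without the low-count filter (0.44). Those of CTSD and GRN passed without WT LPS replicate 1 (0.93 and 0.66) or KO LPS replicate 1 (0.83 and 0.59), and with a GC term (0.35 and 0.22). The counts of 7 and 5 became 12 and 2 without WT LPS replicate 1 and 4 and 1 without KO LPS replicate 2. Only 3 genes were called higher without WT LPS replicate 2, and only 2 or 3 lower without WT replicate 2 or 3 or any single KO library.

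With LPS present in both genotypes, KO exceeded WT in 19 of the 49 genes and fell below it in 7, with 23 not called (53.1% called, against 30.6% of all genes, 15.6% higher and 15% lower). The median was 0.06 beside 0.03. This comparison uses the same LPS libraries as the responses above. Cathepsins (7 of 11) and glycosidases (5 of 7) supplied most of the higher genes, and the V1 sector had 1 higher and 2 lower. Without WT LPS replicate 2 the glycosidases had 3 higher, and without KO LPS replicate 2 they had 2. CTSL had 352 and 317 CPM in WT LPS and 573 and 587 CPM in KO LPS (0.79 ± 0.06, adjusted p = 1.58e-09). CTSD had 297 and 217 CPM against 395 and 519 CPM (0.83 ± 0.16, adjusted p = 0.00586), and MCOLN1 37 and 31.1 CPM against 52.6 and 60.5 CPM (0.73 ± 0.12, adjusted p = 0.000443). Both KO libraries were above both WT libraries in these 3.

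GRN had 1161 and 936 CPM in WT LPS and 1418 and 1724 CPM in KO LPS (0.58 ± 0.12, adjusted p = 0.00593). NPC1 had 154 and 164 CPM against 223 and 231 CPM (0.51 ± 0.06, adjusted p = 5.95e-07). GAA had 204 and 167 CPM against 248 and 333 CPM (0.65 ± 0.14, adjusted p = 0.00879), a call lost without WT LPS replicate 2 (0.51) and smaller without KO LPS replicate 2 (0.42). CTSB was higher by 0.27 ± 0.05 (adjusted p = 0.00016). With a GC term the differences were smaller, 0.41 for CTSD, 0.39 for MCOLN1, 0.25 for GRN and 0.21 for GAA, all called, while those of CTSA (0.03), CTSZ (0.08), ATP6V0B (0.12) and MAN2B1 (-0.03) were lost. CTSL at 0.77 and NPC1 at 0.53 were nearly the same with it.

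CTSF was the lowest relative to WT, at 3.99 and 3.25 CPM against 1.48 and 1.92 CPM (-1.09 ± 0.24, adjusted p = 0.0017). ATP6V1A had 431 and 453 CPM against 366 and 331 CPM (-0.34 ± 0.06, adjusted p = 0.000237). CTSO (-0.33 ± 0.10), ATP6V1G1 (-0.26 ± 0.07), ATP6V0E1 (-0.19 ± 0.06), GLA (-0.17 ± 0.06) and LAMP2 (-0.17 ± 0.06) were the other lower genes. With a GC term only 4 genes were lower, and the calls of CTSO (-0.14), ATP6V1G1 (-0.09), ATP6V0E1 (-0.04) and LAMP2 (0.04) were lost. The count of lower genes was also 4 without WT LPS replicate 2 or KO LPS replicate 2. Without KO LPS replicate 2 ATP6V0E1 was -0.12 and without KO LPS replicate 1 it was -0.29. CTSS (-0.15 ± 0.06), TFEB (0.25 ± 0.12) and LAMP1 (0.05 ± 0.06) were not called, although CTSS passed without KO LPS replicate 1 (-0.23), and TFEB without WT LPS replicate 1 (0.42) or KO LPS replicate 1 (0.36). In all, 12 of the 26 calls were lost without 1 or another library, and 11 held under every alternative.

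The fourth comparison asked what BMS265246 changed in LPS-treated KO cells. Relative to KO with LPS, 38 of the 49 genes were higher, 3 were lower and 8 were not called (83.7% called, against 47.8% of all genes, 22.3% higher and 25.5% lower). The median was 0.41, and that of all genes -0.036. All 5 genes of lipid handling rose (median 0.58), as did the 2 accessory subunits of the pump and MCOLN1, TFEB and TFE3. Of the other groups, 9 of 11 cathepsins, 3 of 5 V0 subunits, 5 of 8 V1 subunits, 5 of 7 glycosidases and 3 of the 4 tested membrane proteins rose, with 6 cathepsins and 4 V1 subunits on unscaled library sizes. GC content was not related to this response across the 49 genes (r = -0.00), and with a GC term 41 were higher and 3 lower.

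CLN8 had the largest rise (ENSG00000182372, chr8:1755778-1801711). Its 26.7 and 26.5 CPM in KO LPS became 126 and 124 CPM with the inhibitor (2.23 ± 0.08, adjusted p = 9.83e-15). No other group of the study reached 50 CPM, the highest library elsewhere being WT replicate 2 at 49.4 CPM. ATP6V1C1 rose from 157 and 147 CPM to 265 and 282 CPM (0.85 ± 0.07, adjusted p = 1.32e-09). CTSK, a collagen-degrading protease best known from osteoclasts, rose from 11.3 and 10.1 CPM to 18.4 and 19.2 CPM (0.81 ± 0.14, adjusted p = 5.7e-05). Of the 7 osteoclast genes 1 was higher and 1 lower with BMS, and their summed level with BMS, given above, was below that of untreated WT and KO, where CTSK had 7.72 to 10.3 CPM.

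TFEB rose from 34 and 41.4 CPM to 65.7 and 62.4 CPM (0.77 ± 0.12, adjusted p = 5.73e-05), and TFE3 from 206 and 227 CPM to 284 and 282 CPM (0.38 ± 0.06, adjusted p = 2.4e-05). MCOLN1 rose from 52.6 and 60.5 CPM to 83.2 and 73.8 CPM (0.47 ± 0.12, adjusted p = 0.00426). TFEB and MCOLN1, lower with LPS, were thus back in or above the range of untreated KO libraries. Among lipid genes NPC1 rose from 223 and 231 CPM to 384 and 386 CPM (0.76 ± 0.06, adjusted p = 4.41e-10), and LIPA from 877 and 777 CPM to 1322 and 1405 CPM (0.72 ± 0.06, adjusted p = 2.46e-09). NPC2, at 1012 and 977 CPM, rose to 1528 and 1445 CPM (0.58 ± 0.06, adjusted p = 5.37e-08). PSAP, the most abundant of these transcripts, rose from 7256 and 7423 CPM to 10673 and 10134 CPM (0.50 ± 0.05, adjusted p = 9.73e-09). In each of them the inhibitor libraries were above every other library of the study.

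LAMP1, which coats the lysosomal membrane, rose from 329.8 and 343 CPM to 538 and 500.5 CPM (0.63 ± 0.06, adjusted p = 1.84e-08), above every other library. SCARB2 rose by 0.53 ± 0.06, whereas LAMP2 was not called (0.06 ± 0.06). Among proteases CTSL rose from 573 and 587 CPM to 739 and 733 CPM (0.34 ± 0.06, adjusted p = 5.19e-05), and CTSS from 1441 and 1329 CPM to 1581 and 1670 CPM (0.23 ± 0.06, adjusted p = 0.00183). CTSD rose from 395 and 519 CPM to 739.9 and 665 CPM (0.62 ± 0.16, adjusted p = 0.0135) and GRN from 1418 and 1724 CPM to 2292 and 1963 CPM (0.44 ± 0.12, adjusted p = 0.0148). CTSB rose from 5318 and 5443 CPM to 6087 and 5842 CPM (0.15 ± 0.05, adjusted p = 0.0119). In CTSD, GRN and CTSB the groups did not overlap, but the call was lost without BMS replicate 1 (0.54, 0.32 and 0.12), and in CTSD and GRN also without KO LPS replicate 1 (0.48 and 0.34).

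In the proton pump ATP6V0A1 (0.60 ± 0.06), ATP6AP2 (0.55 ± 0.06), ATP6V1E1 (0.47 ± 0.06), ATP6V0E1 (0.45 ± 0.06) and ATP6V1B2 (0.39 ± 0.05) rose. ATP6V1A (0.12 ± 0.06), ATP6V1D (0.02 ± 0.08) and ATP6V1H (-0.06 ± 0.07), which LPS had raised, were not called. The enzymes HEXA, GUSB, GLB1, GAA and MAN2B1 rose by 0.43 to 0.57. GLA and NEU1 fell, by 0.21 and 0.20, and neither call was kept without KO LPS or BMS libraries. GLA lost it without KO LPS replicate 1 (-0.14) or BMS replicate 2 (-0.18), and NEU1 without KO LPS replicate 2 (-0.13) or either BMS library (-0.21 and -0.20). Without BMS replicate 2, 1 gene was called lower in place of 3.

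That gene was CLN3, a membrane protein of the lysosome (ENSG00000188603, chr16:28474111-28495575). It fell from 8.51 and 8.14 CPM to 2.92 and 3.73 CPM (-1.31 ± 0.20, adjusted p = 1.09e-05), below every library without the inhibitor. Its low counts and its overlaps, given above, apply to this value. The other rises whose call rested on a single library were those of ATP6AP1 (0.22), ATP6V0D1 (0.18), CD63 (0.17), GAA (0.36) and CTSZ (0.12), lost without BMS replicate 1, and of CTSO (0.30), lost without BMS replicate 2. GAA (0.29) and CTSZ (0.12) lost theirs also without KO LPS replicate 1, and were 0.68 and 0.32 without KO LPS replicate 2, and ATP6V1F without any 1 of the 4 libraries (0.22 to 0.29). Of the 41 calls, 29 held under every alternative. Between genes with and without CACGTG in the promoter the counts, with no test, were these: 8 of 12 with it rose and 2 fell, and 20 of 24 without it rose and 1 fell.

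Compared with untreated KO cells, KO cells with LPS and BMS had 35 genes higher, 2 lower and 12 not called (75.5% called, against 62.7% of all genes, 30.3% higher and 32.4% lower), with a median of 0.39 beside -0.057. On unscaled library sizes 16 were higher and 9 lower. The KO and BMS libraries also enter the comparisons above, so only the values are set side by side. All 8 V1 subunits were higher, and 5 on unscaled library sizes. ATP6V1B2 had 681, 670.1 and 676 CPM in KO and 1436 and 1464 CPM (1.10 ± 0.04, adjusted p = 2.04e-15). ATP6V1C1 had 113, 112 and 116 CPM and 265 and 282 CPM (1.27 ± 0.06, adjusted p = 5.18e-14), and ATP6V1A 195, 184 and 191 CPM and 361 and 396 CPM (1.00 ± 0.06, adjusted p = 1.11e-12). Both inhibitor libraries were far above all KO libraries in each.

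CLN8 had 29.4, 32.9 and 30.7 CPM in KO against 126 and 124 CPM (2.01 ± 0.07, adjusted p = 1.75e-16). NPC1 had 151, 152 and 149.8 CPM against 384 and 386 CPM (1.35 ± 0.05, adjusted p = 6.52e-16). CTSK had 9.49, 7.72 and 10.3 CPM against 18.4 and 19.2 CPM (1.04 ± 0.13, adjusted p = 2.7e-07). None of these 3 overlapped. CTSB (0.51 ± 0.04), CTSS (0.44 ± 0.05), CTSL (0.39 ± 0.05) and LAMP1 (0.59 ± 0.05) were higher, while CTSD (0.18 ± 0.15), GRN (0.19 ± 0.11) and TFEB (0.23 ± 0.10) were not called. The calls of CTSB and LAMP1 held under every alternative, and those of CTSS and CTSL did not. Of 11 cathepsins 7 were higher and 0 lower, and 2 and 2 on unscaled library sizes. CTSD and GRN passed with a GC term (0.37 and 0.34), and TFEB too (0.31). CLN3 fell (-1.55 ± 0.18, adjusted p = 1.2e-07), as did NEU1 (-0.16 ± 0.06, adjusted p = 0.029). The call of NEU1 was lost without KO replicate 2 or 3 or either BMS library (-0.17 to -0.15). Calls of ATP6V0B (0.18), ATP6V1F (0.14 to 0.23), CTSO (0.21 to 0.25) and PPT1 (0.15) were likewise lost without KO replicate 3 (ATP6V1F and CTSO), BMS replicate 1 (ATP6V0B, ATP6V1F and CTSO) or BMS replicate 2 (ATP6V1F, CTSO and PPT1).

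A second list held 100 other genes of the lysosome, its sorting, signalling and autophagy, of which 96 were tested. In KO against WT 10 were higher and 18 lower, where 10.2% and 11.4% of all genes were. With LPS 28 were higher and 47 lower in WT (28.9% and 30.8% of all genes), and 29 and 37 in KO (24.5% and 20.3%). These were, on unscaled library sizes, 17 and 59 in WT and 12 and 51 in KO. With BMS, relative to KO LPS, 45 were higher and 16 lower (22.3% and 25.5% of all genes; median 0.19), and 37 and 23 on unscaled library sizes. Among 29 other lysosomal enzymes 20 were lower and 5 higher with LPS in WT, 17 lower and 4 higher in KO, and 19 higher and 3 lower with BMS, against the same shares of all genes. The higher counts with LPS were 2 and 2 on unscaled library sizes, and the lower 21 and 21. The sulfatase ARSB rose most with LPS, by 1.08 ± 0.05 in WT and 0.81 ± 0.05 in KO. The phospholipase PLA2G15 fell most in WT (-2.08 ± 0.09), from a mean of 65.8 CPM to 15.6 CPM.

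Cathepsin inhibitors rose with LPS in 4 of 6 cases in WT and 3 of 6 in KO, where 28.9% and 24.5% of all genes rose, and on unscaled library sizes in 3 and 2. SERPINB1 rose most in WT (1.19 ± 0.06) and CSTB, cystatin B, in KO (0.82 ± 0.07), while with BMS SERPINB1 fell (-0.87 ± 0.06) and CSTB rose (0.41 ± 0.08). In KO against WT CST7, cystatin F, fell (-1.28 ± 0.11, adjusted p = 9.14e-09), from a mean of 15.3 CPM to 6.27 CPM. Of 17 genes of lysosomal signalling and MiT factors, 9 rose and 6 fell with LPS in WT (28.9% and 30.8% of all genes). With BMS 10 rose and 2 fell (22.3% and 25.5% of all genes). On unscaled library sizes these were 6 and 6 with LPS and 9 and 3 with BMS. The Rag GTPase RRAGC rose most with BMS (1.10 ± 0.10, adjusted p = 4.92e-09), from 28.7 CPM to 61.5 CPM, and FNIP2 with LPS (1.32 ± 0.07 in WT and 0.92 ± 0.07 in KO). DEPTOR, an inhibitor of the kinase mTOR, fell most with LPS (-3.30 ± 0.35 in WT and -3.21 ± 0.38 in KO), from means of 4.53 and 3.73 CPM to 0.453 and 0.401 CPM. Of 10 autophagy genes 2 were higher and 4 lower with BMS, where 22.3% and 25.5% of all genes were, and 2 and 5 on unscaled library sizes. MAP1LC3B was at 0.43 ± 0.06 and SQSTM1 at -0.46 ± 0.15 (adjusted p = 0.0378).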

How the data were processed

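Total RNA was extracted with TRIzol and sequenced after library preparation with a NEBNext Ultra kit, per the labels' protocols. The authors deposited whole-number counts by gene in a single table, a column for each of the 12 libraries. The submitters' processing notes name CASAVA 1.7, Cufflinks and GRCh38. Aligner, counter, strand setting and annotation: not given in the sources used here. Groups and replicate numbers came from the sample titles.

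Genes were kept by filterByExpr (16022 of 57992), scaled by TMM (factors 0.872 to 1.117) and fitted over all 12 libraries, 1 mean per group, with edgeR 4.0.16 in R 4.3.3 (robust quasi-likelihood test, 2-sided, Benjamini-Hochberg over all genes tested, on deposited counts). The biological coefficient of variation was 0.0635. Groups of 2 borrow their spread from the rest. RPKM used the exon length of GENCODE release 29, which also gave positions. GC content was that of the longest transcript. The fit was tested on simulated data.

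The members and lists were chosen with earlier results of these data known. In each comparison, library values are given for up to 6 called genes with the highest and 6 with the lowest change whose groups do not overlap, and statistics for CTSB, CTSD, CTSL, CTSS, LAMP1, GRN and TFEB. For other lists, the called gene with the largest change in a direction is named, and a part of these is printed. Alternatives were DESeq2 1.42.0, other size factors, other low-count filters, fewer groups in the fit, a replicate block, each library left out, and, added later, a GC term and crossed replicate numbers.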

Additional observations from a re-analysis of the deposited data

Results flagged for a closer look

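The LPS response differed between KO and WT in 12 of the 49 lysosomal genes, by the interaction term of edgeR's quasi-likelihood test. The response of KO was the more positive for CLN8 (0.68, adjusted p = 0.00032), NPC1 (0.49, adjusted p = 0.000108), MAN2B1 (0.37), CTSH (0.32, adjusted p = 0.00326), NEU1 (0.30), CTSL (0.29) and GUSB (0.25). It was the more negative for GLA (-0.33, adjusted p = 0.00542), ATP6V1A (-0.32), ATP6V1G1 (-0.28), ATP6V0E1 (-0.25) and CD63 (-0.22). In CLN8 LPS lowered the gene in both genotypes, to 24.6 CPM in both WT libraries and to 26.7 and 26.5 CPM in KO, from different levels without LPS. In NPC1 and CTSH the LPS response was called in KO alone. With 2 LPS libraries per genotype, 4 of the 12 calls, those of CLN8, NPC1, CTSH and GLA, held without each library in turn.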

How the results depend on the processing

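Of the called members, 9 of 14 kept direction and call under every alternative in KO against WT, 27 of 39 for LPS in WT, 15 of 25 for LPS in KO, 11 of 26 for KO LPS against WT LPS, 4 of 12 for the interaction, 29 of 41 for BMS against KO LPS and 17 of 37 for BMS against KO. Where a value below changed, the cause was not tested, except that fewer samples were fitted where libraries or groups were left out.

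Leaving out each library in turn gave 7 to 9 members higher and 3 to 4 lower in KO against WT (2593 to 2787 genes called in all), 14 to 15 and 20 to 25 for LPS in WT (8052 to 9194), and 14 to 15 and 7 to 11 for LPS in KO (6037 to 6700). It gave 14 to 20 and 4 to 10 for KO LPS against WT LPS (3005 to 5549, the lowest without KO LPS replicate 2), 3 to 12 and 1 to 6 for the interaction (1162 to 3079, without KO LPS replicate 2 and KO LPS replicate 1), 29 to 38 and 1 to 2 for BMS against KO LPS (6242 to 6996), and 32 to 35 and 1 to 2 for BMS against KO (8646 to 9566).

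With only the groups compared in the fit, 17 members were higher and 7 lower in KO against WT, 10 higher and 2 lower in KO LPS against WT LPS (2660 genes called in all), and 1 lower in BMS against KO LPS. On unscaled library sizes 8 were higher and 31 lower for LPS in KO, 4 lower in KO LPS against WT LPS, 12 higher and 2 lower in the interaction, and 16 higher and 9 lower in BMS against KO. The share of called genes that were higher moved from 48.4% to 26.7% for LPS in WT, from 54.7% to 25.5% for LPS in KO and from 48.4% to 26.1% for BMS against KO, and for the interaction from 53.5% to 65.3%, with 43.5% under RLE factors and 42.4% with only its groups. A single member (1) was lower in BMS against KO with RLE factors and with DESeq2. With the GC term 7 members were lower in KO against WT (8 with the replicate block too), 4 lower in KO LPS against WT LPS (4), and 12 higher and 2 lower in the interaction (13 and 2).

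Replicate numbers did not pair the libraries: of 21 pairs of the same number, 0 had deviations correlated above 0.1 (r from -0.14 to 0.1), and 4 of 12 libraries were closest to their own number. A replicate block gave 10 members higher and 4 lower in KO against WT, 5 and 3 in the interaction, 17 and 7 in KO LPS against WT LPS, 37 and 3 in BMS against KO LPS, and 34 and 1 in BMS against KO. With the numbers of the KO LPS libraries crossed, chosen after seeing the data, the block gave 18 and 7 for KO LPS against WT LPS and 38 and 3 for BMS against KO LPS.

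These members changed sign. In KO against WT TFEB was -0.00 without the low-count filter, -0.05, -0.03 and -0.03 without WT replicate 1, WT replicate 2 and KO replicate 2, -0.02 with the GC term and -0.01 with the block too. With the GC term, and with the block added, CTSZ (0.04 and 0.04) and ATP6V0D1 (0.03 and 0.05) did so for LPS in WT, CTSS (0.05 and 0.05), MAN2B1 (-0.03 and -0.03) and LAMP2 (0.04 and 0.04) for KO LPS against WT LPS, and CTSS (0.07 and 0.07) in the interaction. CTSB in the interaction was -0.02 with RLE factors, -0.00 without the filter, -0.03 with only its groups, and -0.02 with DESeq2, without WT LPS replicate 2, with the GC term and with the block too. It ranged from -0.02 to 0.08 with libraries left out. On unscaled library sizes ATP6V0E1 (-0.04) and ATP6AP1 (-0.07) did so for LPS in WT, CTSL (-0.20), CTSS (-0.04) and ATP6AP1 (-0.04) for LPS in KO, and CTSD (-0.16), CTSO (-0.10), ATP6V0B (-0.05), ATP6V1F (-0.14), GLB1 (-0.02), GRN (-0.15), SCARB2 (-0.15), TFEB (-0.11), TPP1 (-0.08) and PPT1 (-0.15) for BMS against KO. By the counts given with them, depth limits CD68, ATP6V0C, CTSF and CLN3 most.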

Other observations

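Lysosomal membrane proteins outside the list of members included the gene with the largest rise under LPS among the lysosomal genes tested. LAMP3, which is known from mature dendritic cells and from interferon responses, rose with LPS from a mean of 17.2 CPM to 420.4 CPM in WT (4.61 ± 0.12) and from 5.21 to 67 CPM in KO (3.68 ± 0.15). In KO it was lower than in WT without LPS (-1.72 ± 0.15, adjusted p = 3.24e-06) and with it (-2.65 ± 0.13, adjusted p = 8.25e-09), and the difference in response was -0.93 ± 0.20 (adjusted p = 0.0103). SLC11A1, a metal ion transporter of phagosomes, was higher in KO both without LPS (1.27 ± 0.07, from 69.9 to 169 CPM) and with it (1.14 ± 0.09, from 103 to 227 CPM). The nucleoside transporter SLC29A3 fell with LPS in WT (-1.82 ± 0.10) and in KO (-1.30 ± 0.10). With BMS, MFSD8, a membrane transporter of the lysosome, fell (-1.09 ± 0.13, adjusted p = 4.93e-07), from 19.1 to 8.96 CPM.

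Of the other proton pump subunits, 6 of 10 were tested. ATP6V0A2 rose with LPS in WT (0.59 ± 0.07) and in KO (0.36 ± 0.07), and ATP6V0E2 fell in both (-1.98 ± 0.14 and -1.20 ± 0.13).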
